A study of Mus musculus with 47 samples.

Results

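S100a5 encodes S100A5, a small calcium-binding protein of the S100 family, and it is described here across 47 RNA sequencing libraries of mouse olfactory epithelium, the part of the nasal lining where the odor-sensing neurons sit. It was taken by its symbol from the deposited expression table, where it was 1 of 54532 gene rows. The gene was chosen because earlier results of these data showed it lower in mice labelled for Kir2.1 than in wild type, so every Kir against wild-type value of S100a5, and its ratio to Omp, is a description without a test. Its changes with age within a genotype were not the contrast of that choice and were tested. The age tests use the same libraries, so their p-values and ranks are not independent of the choice.

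Kir mice carried the strain label OIVT;Kir2.1, and wild-type (WT) mice the strain label C57BL/6J. Kcnj2 encodes Kir2.1, a potassium channel that passes current inward more easily than outward. The sources used here give neither what OIVT stands for nor which promoter drives the channel. Epithelium was dissected on 7 days after birth: on the day of birth (P0) and at P3, P5, P7, P10, P14 and P21. The 24 Kir libraries were 4 each at P0, P7 and P10 and 3 each at P3, P5, P14 and P21, and the 23 WT libraries were 4 each at P0 and P7 and 3 each at the other ages. Whether libraries of a group are separate animals is not stated in the labels, and the spread behind each p-value may therefore be technical.

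S100 proteins carry a pair of EF hands, the helix-loop-helix motif that binds calcium, and usually work as dimers that bind other proteins once calcium is bound. In the olfactory epithelium S100a5 is known as a gene of sensory neurons whose transcript level follows the electrical and odor-driven activity of the cell. Omp, olfactory marker protein, marks mature sensory neurons and serves below as the measure of their RNA. Forced expression of Kir2.1 holds a neuron's membrane potential low and dampens its firing. In whole tissue, fewer cells of a type and less RNA per cell cannot be told apart.

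S100a5 (ENSMUSG00000001023) lies on chromosome 3 of GRCm38 from 90608523 to 90611780 on the plus strand, in a cluster of S100 genes. Its nearest neighbours in GENCODE M21 were S100a4, which ends 2477 bases upstream, and S100a6, which starts 1101 bases downstream, both on the same strand, and no annotated gene overlapped it. The annotation holds 2 transcripts, of 2 exons with 422 bases and 3 exons with 431 bases, and both encode the same length of 93 residues. Since no gene overlaps it, its reads were not shared with a neighbour by position.

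The promoter of S100a5 is shown because it is the gene described here, and that of Pcp4l1 because it was the gene of the activity-dependent list whose pattern over all libraries was most like that of S100a5. Both are the 250 bases before the RefSeq transcript start (GRCm38.p6), at chr3:90608272-90608521 on the plus strand and chr1:171196269-171196518 on the minus strand. For S100a5 this is the start of the longer transcript. Capitals mark a CCAAT box (CCAAT, here read on the other strand as ATTGG) and, in S100a5, the AT-rich sequence AATAAA.
S100a5: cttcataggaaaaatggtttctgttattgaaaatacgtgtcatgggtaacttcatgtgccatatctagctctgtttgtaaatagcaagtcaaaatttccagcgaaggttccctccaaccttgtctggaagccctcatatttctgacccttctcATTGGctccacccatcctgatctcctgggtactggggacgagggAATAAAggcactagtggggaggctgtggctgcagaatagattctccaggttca
Pcp4l1: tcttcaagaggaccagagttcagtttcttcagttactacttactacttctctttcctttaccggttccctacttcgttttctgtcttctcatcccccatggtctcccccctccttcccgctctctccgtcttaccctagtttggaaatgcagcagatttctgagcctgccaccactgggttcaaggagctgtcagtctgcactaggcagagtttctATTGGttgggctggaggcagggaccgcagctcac

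In S100a5 the CCAAT box began 97 bases before the start and AATAAA 53 bases before it. In Pcp4l1 the CCAAT box began 34 bases before the start. Of the 32851 RefSeq windows of this length, 33.8% held CCAAT and 18.1% held AATAAA on either strand. The S100a5 window also held 1 E-box (CANNTG), which 66.2% of windows held. These letters were not in the S100a5 window on either strand: the CRE (TGACGTCA, in 1.55% of windows) and its part TGACG (17.8%), the AP-1 site (TGAGTCA or TGACTCA, 4.46%), the TATA box (TATAAA, 12.4%), the homeodomain site TAATTA (4.84%), the Ebf site (0.779%) and CACGTG (6.02%), which is a case of CANNTG. A match is a run of letters, and its use in these cells was not measured.

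Kcnj2, the check on the genotype label, was higher in Kir, at 33.0 to 449 TPM (a level scaled for transcript length and for the library total) in the 24 Kir libraries against 8.93 to 31.2 TPM in the 23 WT libraries, a log2 fold change of 3.63 ± 0.20 as the mean of the 7 ages (SE, edgeR adjusted p = 2.09e-15). It stood under 100 TPM in 5 Kir libraries (replicate 3 at P3, replicates 1 and 4 at P7, replicates 1 and 2 at P21). The S100a5 results that changed most without them are given with and without them. Fold changes of other single genes are given with them only. Gene counts ran from 8107547 to 30385151 per library, and S100a5 itself had 191 to 12487 reads. Library titles begin with cry3, cry4 or cry6, and the sources used here do not explain this prefix. It was cry6 for P5 and P10, cry4 for P0, P3, P14 and P21, and mixed at P7, with 2 cry6 libraries and 1 each of cry4 and cry3 in Kir and in WT. The stage label of WT P0 replicate 3 reads P3 where its title reads P0, and it was kept at P0.

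S100a5 was low at birth, climbed to among the most abundant transcripts of the tissue by P21, and stood lower in Kir than in WT at most ages before P21. At P0 it stood at 71.4, 148, 115 and 61.8 TPM in Kir, against 187, 412, 345 and 259 TPM in WT. At P3 it stood at 285, 180 and 525 TPM in Kir, against 1378, 940 and 993 TPM in WT. At P5 it stood at 259, 229 and 260 TPM in Kir, against 839, 840 and 924 TPM in WT. At each of these 3 ages the highest Kir library lay below the lowest WT library.

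At P7 the level was 862, 502, 338 and 411 TPM in Kir, against 1415, 592, 1025 and 733 TPM in WT. The ranges overlapped at this age because Kir replicate 1 stood above WT replicates 2 and 4. By prefix, the level was 862 TPM in Kir and 1415 TPM in WT with cry4, and 411 TPM in Kir and 733 TPM in WT with cry3. With cry6 it was 502 and 338 TPM in Kir, and 592 and 1025 TPM in WT. Each prefix held only 1 or 2 libraries of a genotype at P7, so nothing is read from this split.

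At P10 the level was 606, 545, 709 and 632 TPM in Kir, against 1014, 1426 and 1061 TPM in WT. At P14 it was 1088, 803 and 996 TPM in Kir, against 2804, 2351 and 2337 TPM in WT. At both ages all Kir libraries lay below all WT libraries. At P21 it was 3698, 3393 and 2649 TPM in Kir, against 3517, 3398 and 2929 TPM in WT, and the ranges overlapped.

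**Figure D1:**
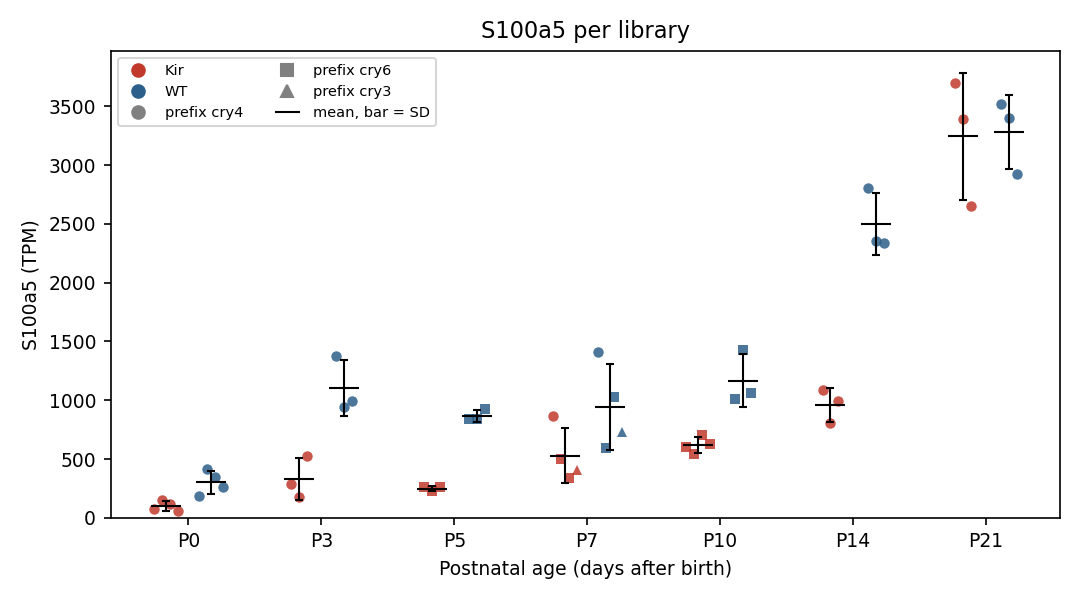
S100a5 level (TPM) in each library by postnatal age, with Kir to the left of WT at each age; points are libraries, the point shape is the title prefix, and lines and bars are the mean and SD. At P14 the 3 Kir libraries sit between 803 and 1088 TPM and the 3 WT libraries between 2337 and 2804 TPM, while at P21 both groups span about the same range.

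The mean Kir level was 32.9% of the WT mean at P0, 29.9% at P3, 28.7% at P5, 56.1% at P7, 53.4% at P10, 38.5% at P14 and 98.9% at P21. The Kir libraries thus lay wholly below WT at 5 of 7 ages. Over all 19927 genes tested, ranges with Kir wholly below WT occurred in 0.818% of genes at P0, 10.2% at P3, 11.6% at P5, 1.62% at P10 and 6.95% at P14, and at 5 or more ages in 0.256%, or 51 genes. S100a5 was chosen on this contrast, so nothing is read from these shares.

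In the model of read counts, which gives each of the 14 groups a mean and adds a term for the prefix, the log2 fold change of S100a5 in Kir over WT was -1.20 ± 0.10 (SE) averaged over the 7 ages. By age it was -1.64 ± 0.25 at P0, -1.56 ± 0.28 at P3, -1.76 ± 0.28 at P5, -0.91 ± 0.24 at P7, -1.11 ± 0.26 at P10, -1.38 ± 0.28 at P14 and -0.00 ± 0.28 at P21. Among libraries with prefix cry4 alone the average over 5 ages was -1.08 ± 0.16, and among those with cry6 alone the average over 3 ages was -1.27 ± 0.13. Whether the difference at P21 departs from that at earlier ages was not tested for S100a5, because the choice of the gene used this contrast.

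Ordered by mean, the 14 groups ran from Kir P0 at 99.0 ± 39.9 TPM (SD, n = 4) and Kir P5 at 249 ± 17.6 TPM (n = 3) up to Kir P21 at 3247 ± 540 TPM (n = 3) and WT P21 at 3281 ± 311 TPM (n = 3). Of the 13 pairs of neighbours in that order, 10 overlapped in range. The 3 gaps lay above Kir P0, between Kir P10 and WT P5, and between WT P10 and WT P14. Kir P14, at 962 ± 146 TPM (n = 3), thus sat among the WT groups of P3 to P10, while WT P14 stood at 2497 ± 266 TPM (n = 3). The spread was widest in Kir P3, with a coefficient of variation of 53.7%, where replicate 3 was 1 of the libraries with low Kcnj2.

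Ranked by mean TPM among all 54532 genes, S100a5 was in place 1532 in Kir P0 and 385 in WT P0. At P14 it was in place 123 in Kir and 28 in WT, and at P21 in place 21 in Kir and 25 in WT. Omp was in place 79 in Kir P21 and 46 in WT P21, so at P21 the S100a5 transcript outranked Omp in both genotypes.

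The ratio to Omp sets S100a5 against the RNA of mature neurons as a whole. Omp was itself lower in Kir, with a log2 fold change of -0.54 ± 0.07 averaged over ages (edgeR adjusted p = 3.03e-07). Its mean in Kir was 64.7% of the WT mean at P0, 54.4% at P3, 63.7% at P5, 86.5% at P7, 74.8% at P10, 68.8% at P14 and 75.1% at P21. By age, Omp passed the test at P0 (edgeR adjusted p = 0.045), where 1.09% of genes did, and at P3 (0.0454), where 0.703% did, and not at the other 5 ages (0.0898 to 1).

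The ratio of S100a5 to Omp, both in TPM, was 0.533, 0.708, 0.672 and 0.564 in Kir P0, against 0.890, 1.45, 1.71 and 0.972 in WT P0. It was 0.818, 0.878 and 1.33 in Kir P3, against 2.10, 1.78 and 1.79 in WT P3. It was 0.537, 0.495 and 0.463 in Kir P5, against 1.14, 1.12 and 1.05 in WT P5. At these 3 ages the ratio was lower in every Kir library than in every WT library.

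At P7 the ratio was 0.953, 0.919, 0.444 and 0.612 in Kir, against 1.71, 0.822, 1.002 and 0.963 in WT, and the ranges overlapped. It was 0.7095, 0.628, 0.583 and 0.739 in Kir P10, against 0.821, 0.954 and 0.991 in WT P10. It was 0.977, 0.843 and 0.833 in Kir P14, against 1.89, 1.45 and 1.43 in WT P14. At P10 and P14 all Kir ratios again lay below all WT ratios. At P21 the order turned, with ratios of 2.64, 2.597 and 2.02 in Kir, against 1.95, 1.86 and 1.69 in WT. All Kir libraries lay above all WT libraries. At that age the Kir mean was 98.9% of the WT mean for S100a5 and 75.1% for Omp. How often the ratio of other genes to Omp separates in this way was not computed, so nothing is read from the ranges not overlapping.

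**Figure D2:**
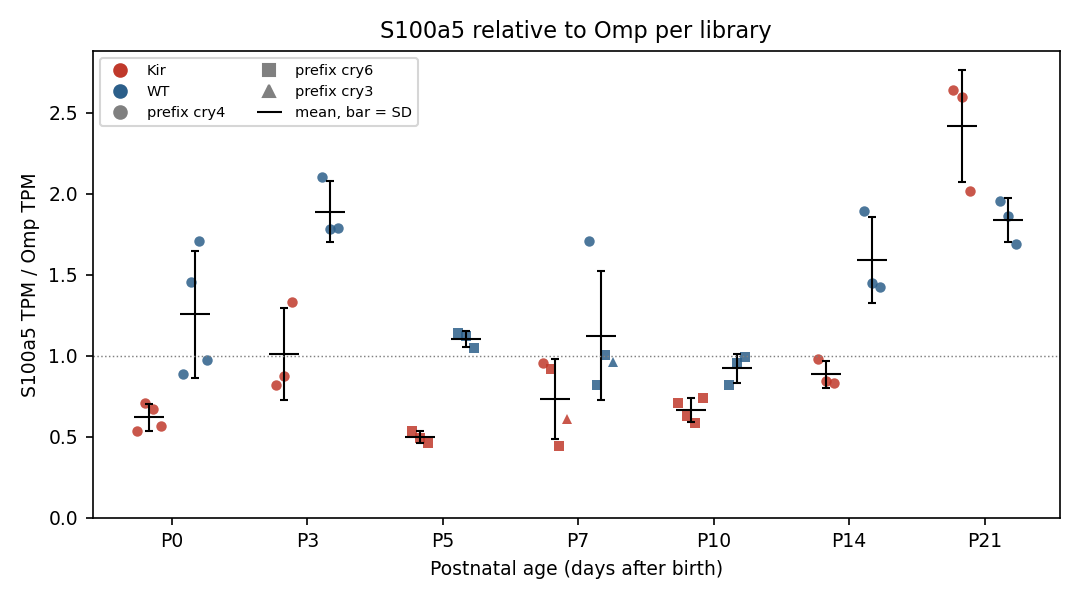
Ratio of S100a5 TPM to Omp TPM in each library by postnatal age, Kir to the left of WT, with mean and SD; the dotted line marks equal levels. The Kir ratio lies below the WT ratio at 5 ages, overlaps it at P7 and lies above it at P21, where Kir spans 2.02 to 2.64 and WT 1.69 to 1.95.

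Averaged over ages, the log2 ratio was lower by 0.66 in Kir (Kir minus WT, -0.66, and -0.74 without the 5 Kir libraries of low Kcnj2). By age the difference was -0.98 at P0, -0.93 at P3, -1.15 at P5, -0.63 at P7, -0.47 at P10, -0.84 at P14 and 0.39 at P21. With the geometric mean of 19 mature sensory neuron genes in place of Omp, the average was -0.84 and the P21 difference 0.24. On that measure the P21 ranges overlapped, at 11.3, 9.86 and 7.96 in Kir against 8.40, 8.43 and 7.67 in WT.

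Age changed S100a5 strongly in both genotypes. From P0 to P21 its level increased 30.5-fold in Kir (95% interval 20.6 to 45.2, log2 fold change 4.93 ± 0.29, edgeR adjusted p = 2.68e-15) and 9.82-fold in WT (95% interval 6.80 to 14.2, log2 fold change 3.30 ± 0.27, edgeR adjusted p = 6.04e-12). Without the 5 Kir libraries of low Kcnj2, which leaves Kir P21 with replicate 3 alone, the Kir log2 fold change was 4.68. All P21 libraries of a genotype lay above all its P0 libraries. These are comparisons in which many genes moved: of the 19927 genes tested, 22.9% rose and 25.9% fell in Kir, and 24% rose and 26.8% fell in WT, at an adjusted p below 0.05. Ranked by p among all genes tested, S100a5 was in place 8 in Kir and 89 in WT.

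WT P0 replicate 1 had a summed level of brain neuron markers of 119 TPM, against 5.65 to 17.6 TPM in the other 46 libraries, and it had the lowest S100a5 of its group. Leaving out any 1 library of the comparison kept the WT change between 3.13 and 3.44 on the log2 scale. Placing WT P0 replicate 3 at P3, as its stage label reads, gave 3.38.

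The increase was uneven over time. From P0 to P3 it was 1.76 ± 0.26 on the log2 scale in Kir (edgeR adjusted p = 2.08e-05) and 1.69 ± 0.26 in WT (2.15e-05), where 17.8% of genes were called in Kir and 20.5% in WT. From P3 to P14 it was 1.34 ± 0.28 in Kir (edgeR adjusted p = 0.000618) and 1.15 ± 0.28 in WT (0.00258), where 25.6% of genes were called in Kir and 22.6% in WT. S100a5 thus rose in both genotypes over each of these steps.

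From P14 to P21 S100a5 rose in Kir, by 1.83 ± 0.28 on the log2 scale (edgeR adjusted p = 0.000638). Only 94 genes, 0.472% of those tested, were called in that step, 23 of them higher. In WT the same step was 0.45 ± 0.28 (edgeR adjusted p = 1) and did not pass, with 9 genes or 0.0452% called. Without the 5 Kir libraries of low Kcnj2, which leaves Kir P21 with replicate 3 alone and assumes that it varies like the other groups, the Kir step was 1.55 ± 0.33 and no longer called (edgeR adjusted p = 0.0734).

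Between P5 and P10, the ages with the deeper cry6 libraries, S100a5 rose in Kir by 1.08 ± 0.27 on the log2 scale (edgeR adjusted p = 0.00791, 8.76% of genes called). In WT it changed by 0.43 ± 0.28 and did not pass (edgeR adjusted p = 0.610, 1.93% called). The differences between the genotypes in these age steps were not tested for S100a5, since they restate the contrast it was chosen on.

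The 5 Kir libraries with low Kcnj2 are set beside S100a5 without a correlation, because they stand apart from the other 19. At P3, replicate 3 had 33.0 TPM of Kcnj2 and 525 TPM of S100a5, and the other 2 libraries had 286 and 147 TPM of Kcnj2 and 285 and 180 TPM of S100a5. At P7, replicates 1 and 4 had 46.1 and 52.8 TPM of Kcnj2 and 862 and 411 TPM of S100a5, and replicates 2 and 3 had 207 and 320 TPM of Kcnj2 and 502 and 338 TPM of S100a5. At P21, replicates 1 and 2 had 58.0 and 64.6 TPM of Kcnj2 and 3698 and 3393 TPM of S100a5, and replicate 3 had 286 TPM of Kcnj2 and 2649 TPM of S100a5.

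At P3, P7 and P21 the Kir library with the most S100a5 was the one with the least Kcnj2 of its age, and P21 replicate 3 lay below all 3 WT P21 libraries. At P0 and P5 the library with the most S100a5 was instead the one with the most Kcnj2, though at P5 its lead was small (260 against 259 TPM of S100a5). At P10 and P14 the library with the most S100a5 had neither the most nor the least Kcnj2. At P0 Kcnj2 was 134, 181, 145 and 109 TPM in replicates 1 to 4, which had 71.4, 148, 115 and 61.8 TPM of S100a5. The ratio of S100a5 to Omp in P21 replicate 3, 2.02, lay above all 3 WT ratios. Without these 5 libraries the log2 fold change of S100a5 in Kir over WT was -2.14 ± 0.31 at P3, -0.97 ± 0.31 at P7, -0.28 ± 0.36 at P21 and -1.32 ± 0.11 averaged over ages.

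**Figure D3:**
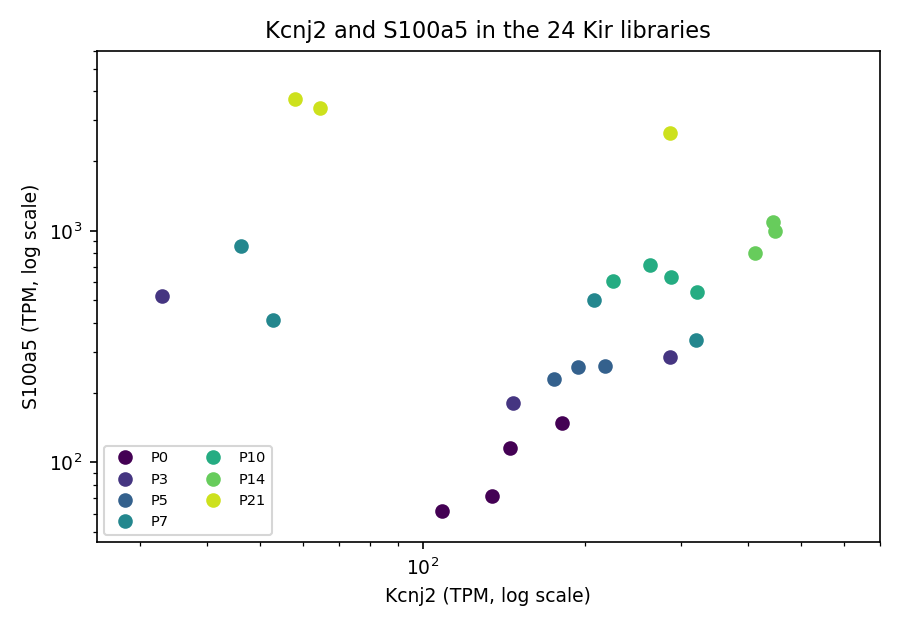
Kcnj2 (x axis, TPM, log scale) and S100a5 (y axis, TPM, log scale) in the 24 Kir libraries, colored by age. The 5 libraries on the left, at 33.0 to 64.6 TPM of Kcnj2, stand apart from the other 19, at 109 to 449 TPM.

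Of 12 genes of sensory neurons known to change with activity, up or down, 9 fell and 0 rose in Kir averaged over ages. S100a5 was left out of this list, and the known direction of each gene was not used in the counts. The median log2 fold change was -0.58, against 0.01 over all 19927 genes, of which 7.43% fell and 3.12% rose. Nphs1, the adhesion protein nephrin, fell by 1.69 ± 0.12 on the log2 scale (edgeR adjusted p = 1.79e-12), more than S100a5. Kirrel2, an adhesion protein that sorts sensory axons, fell by 1.09 ± 0.13 (edgeR adjusted p = 4.11e-08). Sema7a, an axon guidance ligand, fell by 0.77 ± 0.08 (edgeR adjusted p = 1.16e-09), and Epha5, an ephrin receptor, by 0.66 ± 0.07 (2.71e-08). This list, like the others below, was chosen with earlier results of these data known. Its counts and p-values are therefore not independent of that choice.

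Pcp4l1, a relative of a calmodulin-binding peptide, fell by 0.62 ± 0.08 on the log2 scale (edgeR adjusted p = 1.74e-07), and Lrrc3b, a leucine-rich repeat gene named here after its values were seen, by 0.65 ± 0.09 (1.89e-06). The 3 members that did not pass were Kirrel3 at 0.01 ± 0.06, Efna5, an ephrin ligand, at 0.05 ± 0.06, and Calb2, the calcium buffer calretinin, at 0.06 ± 0.07. Kirrel3 and Efna5 are known as genes that mark the less active axons, where Kirrel2 and Epha5 mark the more active ones.

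At P21 only Nphs1 of the 6 genes just named passed the test. Kirrel2 stood at 310 ± 23.95 TPM in Kir and 312 ± 49.4 TPM in WT (SD, n = 3 each), with a log2 fold change of -0.03 ± 0.34 (edgeR adjusted p = 0.998). Sema7a, at -0.25 ± 0.21 (edgeR adjusted p = 0.827), and Epha5, at -0.47 ± 0.20 (0.488), did not pass. Pcp4l1 stood at 505, 480 and 639 TPM in Kir, against 586, 555 and 588 TPM in WT, and Lrrc3b at 76.7, 82.6 and 39.1 TPM in Kir, against 75.8, 82.9 and 54.1 TPM in WT. For both genes Kir replicate 3, the P21 library with high Kcnj2, stood apart from the 2 with low Kcnj2: it was the highest of the 6 libraries for Pcp4l1 and the lowest for Lrrc3b. Neither gene passed at P21. Nphs1 stood at 13.96 ± 0.90 TPM in Kir and 41.6 ± 4.54 TPM in WT, with a log2 fold change of -1.70 ± 0.30 (edgeR adjusted p = 0.00097), where 0.743% of all genes were called. The genes were not tested against each other, and whether the genotype difference of any of them itself differed between P21 and the earlier ages was not tested.

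**Figure D4:**
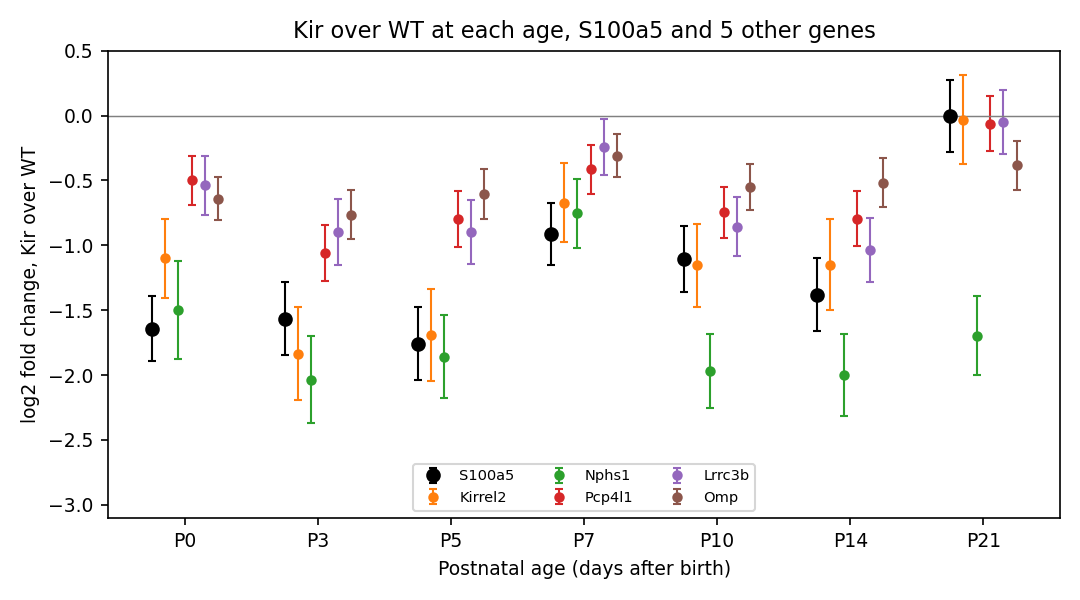
Log2 fold change of Kir over WT at each age for S100a5 and 5 other genes; points are fitted values, bars are SE, and values below 0 are lower in Kir. At P21 S100a5 (-0.00), Kirrel2 (-0.03), Pcp4l1 and Lrrc3b lie near 0 while Nphs1 stays at -1.70 and Omp at -0.38.

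Of the other 15 S100 genes tested, 1 fell and 0 rose in Kir averaged over ages, against 7.43% and 3.12% of all genes, and the median log2 fold change was 0.13. The one that fell was S100a3, its neighbour 5820 bases upstream, at -0.96 ± 0.15 (edgeR adjusted p = 1.61e-05). It was a rare transcript, at 5.55 ± 0.87 TPM in Kir P21 and 6.54 ± 2.09 TPM in WT P21 (SD, n = 3 each), and among cry4 libraries alone its change did not pass (-0.65, edgeR adjusted p = 0.181), nor did it with the replicate number as a block (-0.91, edgeR adjusted p = 0.0659). The adjoining genes did not pass, with S100a4 at 0.06 ± 0.11 and S100a6 at 0.13 ± 0.09.

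From P0 to P21 in Kir, 3 of the other 15 S100 genes rose and 5 fell, where 22.9% of all genes rose and 25.9% fell. In WT, 2 rose and 2 fell, where 24% of all genes rose and 26.8% fell, with a median of -0.01 against -0.05 over all genes. In WT S100a4 rose by 1.63 and S100a3 by 1.25 on the log2 scale, and S100a10 fell by 1.70 and S100a11 by 1.14. All 15 lay below the 3.30 of S100a5 in WT.

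Among 26 tested genes of other EF-hand proteins and the calmodulin pathway, 6 fell and 0 rose in Kir averaged over ages, with a median log2 fold change of -0.10, where 7.43% of all genes fell and 3.12% rose. On log2(TPM + 1) 3 of them fell, where 1030 of 19927 genes did. Among cry4 libraries alone 1 fell, where 374 of 20717 genes did, and among cry6 libraries alone 2, where 319 of 20648 did. Vsnl1, the neuronal calcium sensor visinin-like protein 1, fell by 0.69 ± 0.06 (edgeR adjusted p = 3.08e-10). Necab2, a neuronal EF-hand protein, fell by 0.28 ± 0.06 (edgeR adjusted p = 0.00213), and Camk2d, a calmodulin-dependent kinase subunit, by 0.22 ± 0.05 (0.00228). Neither Necab2 nor Camk2d passed among cry4 or cry6 libraries alone, and Camk2d did not pass on log2(TPM + 1). Pvalb and Rcvrn, the remaining listed genes, had too few counts to be tested.

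Of 19 mature sensory neuron genes, 17 fell and 0 rose in Kir, with a median log2 fold change of -0.40, against 7.43% that fell and 3.12% that rose among all genes. Among cry4 libraries alone 8 of them fell, where 374 of 20717 genes did, and among cry6 libraries alone 6, where 319 of 20648 did. Pde1c, a calmodulin-regulated phosphodiesterase of the cilia, fell by 0.50 ± 0.05 (edgeR adjusted p = 1.11e-09), Slc17a6, a vesicular glutamate transporter, by 0.62 ± 0.07 (8.81e-08), and Stoml3, a stomatin-like membrane protein, by 0.44 ± 0.06 (1.10e-06). The 19 ranged from -0.62 to -0.14. S100a5 was chosen on this contrast, so nothing is read from its larger fall. Of 14 immature neuron genes 1 rose (Ablim1) and 1 fell (Hdac9), with a median of -0.00, which are shares near those of all genes, and neither passed among cry4 or cry6 libraries alone. Of 14 immediate early genes, the fast transcriptional responders to stimulation, 1 fell, a share near the 7.43% of all genes, and 0 rose. It was Nr4a1 (-0.38 ± 0.12, edgeR adjusted p = 0.0284), and it did not pass among cry4 or cry6 libraries alone, nor in 7 of the 47 fits that each left out 1 library.

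**Figure D5:**
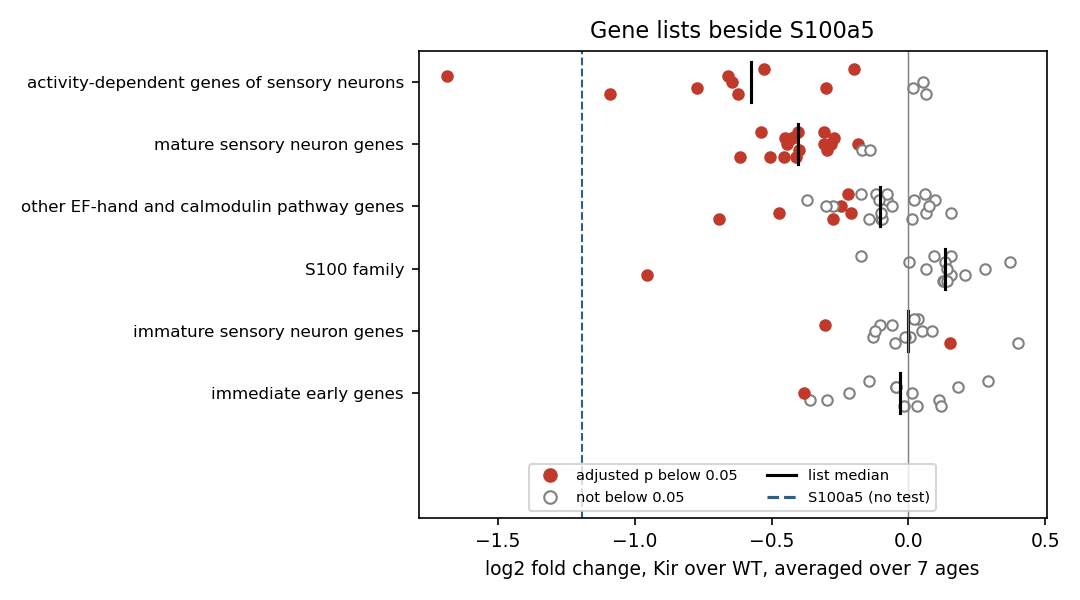
Log2 fold change of Kir over WT averaged over 7 ages for the genes of 6 lists; filled points passed an adjusted p below 0.05, open points did not, black lines are list medians and the dashed line is S100a5. The activity-dependent and mature neuron genes lie mostly below 0, with medians of -0.58 and -0.40, and the S100 family around 0.13.

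With age, all 19 mature neuron genes rose from P0 to P21 in both genotypes, with a median log2 fold change of 2.14 in Kir and 1.95 in WT, where 22.9% of all genes rose in Kir and 24% in WT. The largest was 3.04 for Omp in Kir and 2.88 for Cnga4, a cyclic nucleotide-gated channel subunit, in WT, below the 4.93 and 3.30 of S100a5. Of the 12 activity-dependent genes, 10 rose in Kir and 0 fell, and 10 rose and 1 fell in WT, where Nphs1 rose by 4.80 on the log2 scale and Pcdh10, a protocadherin, was the one that fell. Of 14 immediate early genes, 8 fell in Kir and 9 in WT, where 25.9% and 26.8% of all genes fell, and 0 rose by edgeR with TMM scaling, while 1 rose in WT with upper-quartile scaling, by DESeq2 and on log2(TPM + 1).

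Of the lists for other cells and for interferon-stimulated genes, only macrophage and interferon-stimulated genes moved with genotype averaged over ages. Over all ages the summed level of 5 macrophage genes (C1qa, C1qb, C1qc, Adgre1, Trem2) was 37.9 to 113 TPM in Kir and 38.5 to 97.5 TPM in WT. By age the ranges overlapped at P0, P5 and P7 and separated at the others, as at P14 (91.3 to 96.0 TPM in Kir, 41.2 to 55.6 TPM in WT). All 5 rose in Kir averaged over ages, with a median log2 fold change of 0.54. Among cry4 libraries alone 3 of the 5 passed, where 141 of 20717 genes rose. Among cry6 libraries alone 0 passed, where 249 of 20648 genes rose. The summed level of 7 interferon-stimulated genes was 26.2 to 1127 TPM in Kir and 13.6 to 89.9 TPM in WT, and all 7 rose, with a median of 3.00. Of all 19927 genes, 3.12% rose and 7.43% fell in this comparison. No gene of the lists for sustentacular cells (5 genes), globose basal cells (6), horizontal basal cells (3), ensheathing glia (5), ciliated cells (4), brain neurons (5) and red blood cells (3) passed in Kir over WT averaged over ages. By edgeR and by DESeq2, 0 of these 31 genes passed, and 2, Gria2 and Npy, had an unadjusted p below 0.05. The part of the macrophage and interferon genes in the S100a5 result was not tested.

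Genes with a pattern most like that of S100a5 were sought among 13021 genes of at least 5 CPM on average, by the Pearson correlation of log2 CPM. Over the 47 libraries the highest were 5730403I07Rik and Kcnmb3, a potassium channel subunit (r = 0.95 each), then Pde1c, Slc17a6, Scn4b, Slc8a1, Dlg2, Pcp4l1, Trim45 and Pcdhb1 (0.94). These libraries share age, genotype and library make-up, so most genes of maturing neurons correlate, and Omp came in place 52 with r = 0.90.

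The deviations from the 14 group means leave age and genotype out. By that measure the highest were Kcnmb3 (r = 0.80), Rasgrp4, a guanine nucleotide exchange factor (0.80), Kirrel2 (0.78), Stoml3, Vsnl1, Rab3gap1, Tarsl2, Synj2, Plekhb1 and Stom (0.69 to 0.71), over the same 47 libraries. Omp came in place 23 (r = 0.66) and Nphs1 in place 1146 (r = 0.30). The lowest were Sertad4 (-0.66), Samd4, Ret, Jcad and Map3k3 (-0.62). Both ends depend on the scale. On log2(TPM + 1) the 5 lowest were -0.49, -0.42, -0.39, -0.41 and -0.07. Of the 10 highest, 7 were again among the 10 highest on that scale, and Rab3gap1, Synj2 and Plekhb1 stood at 0.60 each. Libraries of a group can differ from each other in neuron content, at P7 in title prefix and, in Kir, in Kcnj2 level (58.0 to 286 TPM at P21). These correlations do not remove such differences.

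Kcnmb3, alike by both measures, was named for its likeness to a gene chosen on the Kir against WT contrast, so its genotype values are a description without a test. Its log2 fold change in Kir over WT was -0.79 ± 0.08 averaged over ages. It stood at 28.0 ± 1.21 TPM in Kir P14 and 56.8 ± 4.42 TPM in WT P14, and at 51.8 ± 2.71 TPM in Kir P21 and 54.9 ± 7.77 TPM in WT P21 (SD, n = 3 each).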

How the data were processed

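Polyadenylated RNA of mouse olfactory epithelium was sequenced. One deposited table gives raw read counts for each gene and another gives TPM. Build mm10, STAR 2.6.1c, RSEM and bcl2fastq 2.18 are named, per the submitters' processing notes, and no source used here gives the strand setting. The 4 lines of the deposited counts that name no gene (unmapped, 1.31% to 33.49% of a library; multiply mapped, 5.17% to 20.58%; outside genes, 3.79% to 12.28%; ambiguous, 2.91% to 3.80%) stayed out of library sizes and tests. The TPM values, as the authors deposited them, gave levels, ranges and ratios.

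In R 4.3.3, edgeR 4.0.16 tested the counts by two-sided quasi-likelihood F tests, with TMM factors, filterByExpr (19927 genes kept), 14 group means plus the prefix, in 1 fit of 47 libraries. Benjamini-Hochberg adjustment ran over all of these, with calls below 0.05. Genotype effects averaged over ages weight the 7 ages equally. No replicate libraries were identical. The gene and the lists were chosen with earlier results of these data known. Up to 4 genes a list were named by smallest p (some are not reported here), and, for likeness, the 10 highest by each measure and the 5 lowest deviations (log2 CPM, prior count 2). Alternatives were other scaling factors, no filter, DESeq2 1.42.0, limma 3.58.1 on log2 TPM (pseudocounts 1 and 0.1), prefixes apart or without their term, another placing of WT P0 replicate 3, a replicate block, and libraries left out. Scripts were tested on simulated data. RefSeq windows (GRCm38.p6) gave the sequences; positions are those of GENCODE M21 on GRCm38.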

Additional observations from a re-analysis of the deposited data

Results flagged for a closer look

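Omp in Kir P10 replicate 3, at 1215 TPM, stood far above the other 3 libraries of its group, with a gap of 0.963 of the group's whole range. It was the only such value among 25 combinations of group and quantity checked, where chance flags about 1 in 20. Not every group and quantity was checked. Kcnj2 in Kir P21, at 58.0, 64.6 and 286 TPM, was also uneven. It was not flagged, which does not mean that it was checked and passed. The following values are for Kir P10 replicate 3. Its S100a5 level, 709 TPM, was the highest of the 4 and its ratio to Omp, 0.583, the lowest.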

How the results depend on the processing

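The S100a5 differences at P0 to P14 and its tested age changes kept their sign under the alternatives run, and its average Kir over WT log2 fold change stayed between -1.26 and -1.16 when each of the 47 libraries was left out. The P3 difference ranged from -2.14 (without Kir P3 replicate 3, the library with low Kcnj2) to -1.30, and the P21 difference from -0.09 to 0.13, which changes its sign within the spread between replicates. Without the 5 Kir libraries of lowest Kcnj2, an alternative chosen after seeing the data, the P3 difference was -2.14, the P21 difference -0.28, the Kir step from P14 to P21 1.55 (edgeR adjusted p = 0.0734), and 5629 genes (3055 higher, 2574 lower) were called between Kir P21 and Kir P0, against 9740 (4572 higher, 5168 lower) with all libraries. The count of genes called in Kir over WT averaged over ages, 2101 (621 higher, 1480 lower), was 515 (374 lower) with cry4 libraries alone and 568 (319 lower) with cry6 libraries alone, both with fewer libraries, and 1800 to 2349 with each library left out. A fit with the replicate number as a block, on the P0, P3, P14 and P21 libraries, called 839, against 952 in the same libraries without the block, which was added after seeing the data. Libraries of the same number in both genotypes did not deviate together at every age: over 13 pairs r was -0.31 to 0.40, 7 were over 0.1 and 6 correlated best with their own number, so the numbers were not taken as pairs. The 3 pairs at P3 had r = 0.248, 0.247 and 0.232, each best with its own number. Under the block the S100a5 average was -1.19 and its P3 difference -1.72, against -1.58 in the same libraries without it. For single genes and lists, 28 combinations of result and alternative were no longer called, 2 became called and 57 moved, and no called value changed sign. The ratio to Omp rests on TPM, and with normalized CPM the average was -0.68. At P0 a library held as few as 191 S100a5 reads.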
